A study of Mus musculus with 12 samples.

Results

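Histone genes of the Hist1 to Hist4 families were followed in mouse ear skin with and without the microbiota, under an irritant that causes skin inflammation. The deposited table has 24532 gene rows, of which 69 have a symbol of these families (linker histone H1 or core histones H2A, H2B, H3 and H4). Of these 69, 55 were selected on their counts, as rows with 10 or more counts in at least 3 of the 12 libraries: 2 of 6 H1 genes, 16 of 19 H2A, 16 of 19 H2B, 12 of 12 H3 and 9 of 13 H4. By symbol, 47 of the 55 are Hist1 genes on chromosome 13, 6 are Hist2 genes on chromosome 3 and 2 are Hist3 genes on chromosome 11. Of the Hist1 genes 1, Hist1h2al, carries a noncoding transcript ID, is a pseudogene in RefSeq (H2af-ps2) and lies apart from the Hist1 cluster. Members and gene lists were picked with earlier results of these data known.

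The libraries were bulk RNA-seq of ear skin from specific-pathogen-free (SPF) mice, which carry a microbiota, and germ-free (GF) mice, which have none. Each housing had 3 libraries treated with ethanol, the vehicle, and 3 treated with MC903 (calcipotriol), a vitamin D analogue used to provoke a dermatitis that resembles atopic dermatitis. The groups were SPF ethanol, SPF MC903, GF ethanol and GF MC903, with libraries numbered 1, 2 and 3 in SPF and 1, 4 and 5 in GF mice. The labels give 5 daily treatments in wording that does not separate days from times in a day. The strain label reads C57BL/6 in 9 libraries and ends in another number in 3 GF libraries (MC903 4, ethanol 5 and MC903 5). Sex and age are not given, and nothing says whether libraries were separate animals, so a p-value covers no more than how far these 12 libraries scatter. Library totals ran from 36358294 to 48225425 estimated counts.

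Core histones form the octamer around which DNA is wrapped in nucleosomes, and linker histone H1 binds the DNA where it enters and leaves. The genes studied here are mostly of the replication-dependent kind: cells make their transcripts chiefly in S phase, when new DNA must be packed, and many gene copies encode the same or nearly the same protein. Their transcripts typically end, without a poly(A) tail, just after a stem-loop that the protein SLBP binds. Some of these genes, Hist1h1c, Hist1h2bc and Hist2h2be among them, are also known to give polyadenylated transcripts in cells that have stopped dividing. Skin keeps a dividing basal layer under cells that differentiate and no longer divide. The TruSeq kit named in the labels ordinarily selects polyadenylated RNA, whether that was done here is not given in the sources used, and its part in the levels below was not tested.

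The stem-loop was searched for in GENCODE M21 transcripts (GRCm38) and found in those of 39 of the 55 genes. In 18 of the 39 the transcript model runs more than 100 bases past the stem-loop, and in 21 it ends within 100 bases of it. The sites of 5 genes described below are shown, each as its 16-base stem-loop in capitals with the bases beside it, all on chromosome 13 except Hist2h2aa1 on chromosome 3.
Hist1h1c: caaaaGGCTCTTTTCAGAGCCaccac
Hist1h2bg: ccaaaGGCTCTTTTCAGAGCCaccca
Hist2h2aa1: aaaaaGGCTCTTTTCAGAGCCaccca
Hist1h3c: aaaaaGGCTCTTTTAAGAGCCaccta
Hist1h4i: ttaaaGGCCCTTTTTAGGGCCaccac
The stem of Hist1h4i pairs other letters than that of the H1, H2A and H2B genes shown. In Hist1h1c the model runs 840 bases past the site and in Hist1h4i 330 bases, while in Hist2h2aa1 it ends 35 bases after it. The search found no stem-loop in the models of Hist1h2bc and Hist2h2be.

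RefSeq promoters (GRCm38.p6, 250 bases before to 50 after the start) were at hand for 50 of the 55 genes, and 3 are shown because their genes carry results below and differ in motif content. Capitals mark matches to CCAAT, to TATAAA and to ATTTGCAT (the octamer, a motif known from H2B promoters), each searched on both strands, so that CCAAT on the other strand reads ATTGG.
Hist1h2bg, chr13:23571150-23571449, plus strand: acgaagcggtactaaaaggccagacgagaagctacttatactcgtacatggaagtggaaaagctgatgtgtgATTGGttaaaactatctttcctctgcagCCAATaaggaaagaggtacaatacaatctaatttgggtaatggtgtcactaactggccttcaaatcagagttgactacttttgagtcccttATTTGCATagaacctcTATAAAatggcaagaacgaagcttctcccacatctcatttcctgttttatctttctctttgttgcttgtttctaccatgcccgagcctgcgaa
Hist1h3c, chr13:23745472-23745771, minus strand: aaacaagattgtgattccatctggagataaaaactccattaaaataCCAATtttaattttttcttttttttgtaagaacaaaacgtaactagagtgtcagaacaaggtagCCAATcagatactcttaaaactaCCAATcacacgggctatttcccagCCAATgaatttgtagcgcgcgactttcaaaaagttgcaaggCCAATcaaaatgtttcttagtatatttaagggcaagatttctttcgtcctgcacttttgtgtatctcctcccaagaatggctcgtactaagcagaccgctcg
Hist1h4i, chr13:22041313-22041612, minus strand: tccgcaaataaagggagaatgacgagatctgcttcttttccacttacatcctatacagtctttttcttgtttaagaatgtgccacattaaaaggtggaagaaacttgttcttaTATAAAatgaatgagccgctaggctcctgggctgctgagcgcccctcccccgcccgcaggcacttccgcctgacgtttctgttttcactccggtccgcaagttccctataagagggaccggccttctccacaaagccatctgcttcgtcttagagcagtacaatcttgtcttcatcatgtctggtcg
CCAAT was in 88% of the 50 promoters, against 37.4% of all 32851 promoters in the table. It was in all 15 H2A, 14 H2B and 10 H3 promoters and in 3 of 9 H4 promoters. TATAAA was in 54% against 13.6% of all promoters. The octamer was in 20% against 1.74%: in 6 H2A and 4 H2B promoters, with 0 among those of H3 and H4. Several H2A and H2B genes start back to back, so their windows overlap and are not independent. Hist1h2bg and Hist1h2ae start 176 bases apart, and the window shown for Hist1h2bg covers most of that of Hist1h2ae.

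Histone transcripts were unevenly spread over the genes. Levels are given as CPM, which are counts scaled to library size with TMM factors, and levels of different genes are set side by side as the authors' FPKM, which is per length. By FPKM, Hist1h1c, Hist2h2aa1 and Hist1h2bc held the top 3 ranks in SPF ethanol skin, at 51.6 ± 7.8, 51.0 ± 5.7 and 49.3 ± 6.0 (SD, n = 3), and did not differ beyond their spread. Hist3h2a came next at 23.1 ± 3.3, then Hist1h2bg at 12 ± 0.75 and Hist1h4i at 5.05 ± 1.0, each below its neighbour by more than the spread. Hist2h2be, at 4.23 ± 0.47, lay within the spread of Hist1h4i. At the other end, 39 of the 55 genes had a mean under 1 CPM. Hist1h1c, Hist1h2bc and Hist2h2aa1 together took 65.1% to 72% of the summed histone CPM in SPF ethanol libraries and 52.9% to 56.4% in GF MC903 libraries.

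**Figure D1:**
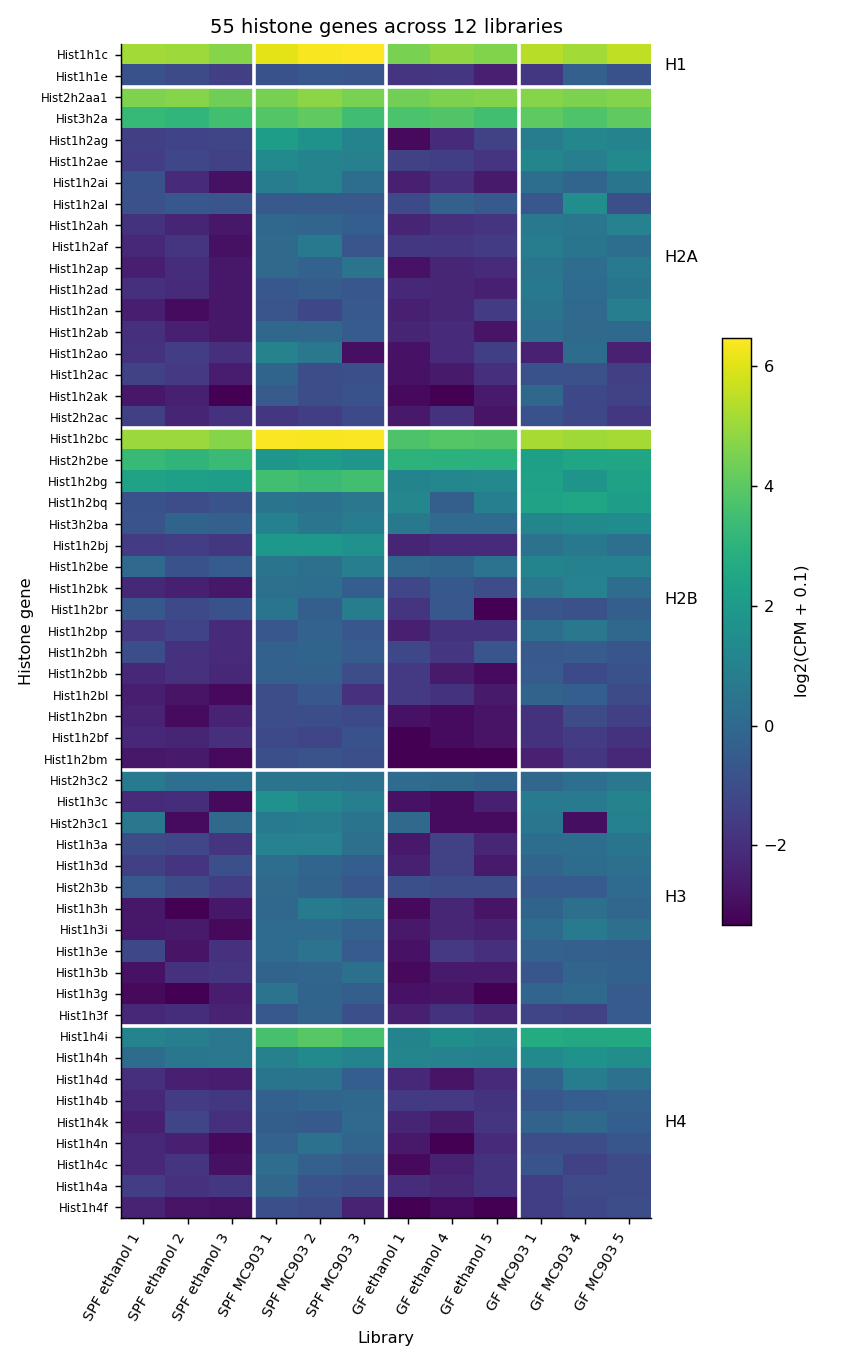
Level of each of the 55 histone genes (rows, grouped by class and sorted by mean level) in each of the 12 libraries (columns), as log2(CPM + 0.1), with lighter colours for higher levels. A few genes, such as Hist1h1c, Hist2h2aa1 and Hist1h2bc, are high in every library, while most rows are dark in both ethanol blocks and lighter in both MC903 blocks.

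The summed histone level was higher with MC903 in both housings. In SPF mice the 69 rows summed to 132, 126 and 111 CPM with ethanol and to 273, 294 and 278 CPM with MC903, a ratio of means of 2.29. In GF mice they summed to 96.0, 106 and 100.3 CPM with ethanol and to 186, 175 and 191 CPM with MC903, a ratio of 1.83. All MC903 libraries lay above all ethanol libraries, and the SPF MC903 libraries above those of GF mice. With library totals all GF MC903 libraries, at 154, 145 and 160 CPM, lay below SPF ethanol 1, at 165 CPM. GF MC903 4 also lay below SPF ethanol 2, at 152 CPM. The means of GF MC903 and SPF ethanol libraries were then 153 and 151 CPM, while the treatment groups stayed apart within each housing. With CPM of the plain library total the ratios were 1.54 and 1.28, since TMM factors ran from 1.16 to 1.25 with ethanol and from 0.81 to 0.84 with MC903. The ratio was unequal over classes: in SPF mice it was 1.45 for H2A, 2.38 for H2B, 2.58 for H1, 3.74 for H3 and 5.25 for H4. In GF mice it was 1.48 for H2A, 1.63 for H1, 2.07 for H2B, 2.60 for H4 and 4.70 for H3. In bulk skin, more cells making a transcript and more transcript per cell cannot be told apart.

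**Figure D2:**
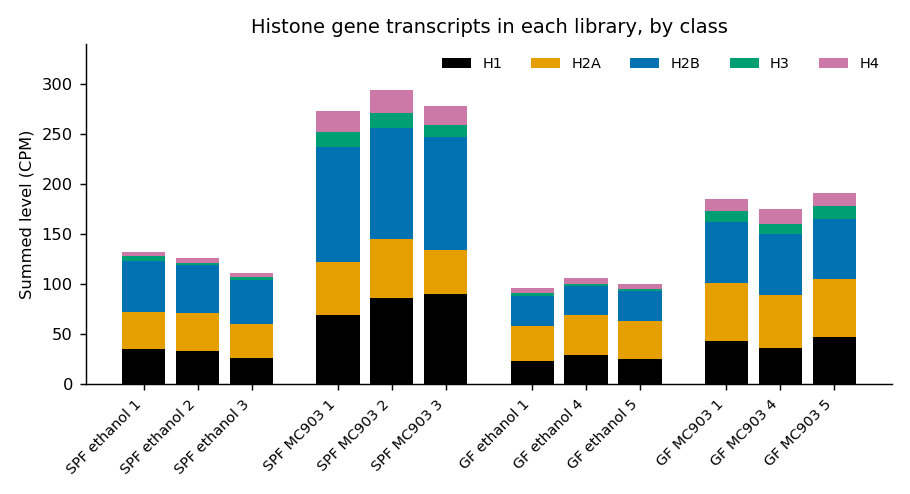
Summed CPM (TMM-scaled) of all 69 histone rows in each library, stacked by class. The bars reach 111 to 132 in SPF ethanol, 273 to 294 in SPF MC903, 96.0 to 106 in GF ethanol and 175 to 191 in GF MC903 libraries, with H3 and H4 the thinnest bands.

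With MC903, most of the 55 genes rose. In SPF mice 47 were higher and 1 was lower (edgeR quasi-likelihood test, Benjamini-Hochberg adjusted p under 0.05), where 35% of all 16466 genes tested were higher and 38.8% lower. In GF mice 45 were higher and 1 was lower, against 33.4% and 35.1% of all genes. The median log2 change of the 55 was 2.34 in SPF and 2.18 in GF mice, beside -0.10 and -0.07 over all genes, and stayed the same with genes at 0 set to their bound. It was 1.33 and 1.02 in the 16 genes with a mean of 1 CPM or more. There were 43 genes that rose in both housings, and Hist2h2be fell in both. The count rule itself fixes part of this: 17 genes reached 10 counts in MC903 libraries only, so they had to differ, and all 17 rose in both housings. Of the 38 that reached 10 counts in an ethanol library, 30 rose and 1 fell in SPF mice and 28 rose and 1 fell in GF mice. Some of the 38, such as Hist1h2ai and Hist1h3b, did so in fewer than 3 ethanol libraries. These met the rule only through their MC903 libraries, so it favoured their rise as well. Of the 14 with at least 10 counts in every library, 10 rose and 1 fell in SPF mice and 8 rose and 1 fell in GF mice.

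Gene length moved with the change. By the length that counts and FPKM imply, 52 of the 55 genes were among the shortest 10% of genes tested, and of these short genes 56.3% of genes rose and 13.5% fell in SPF mice, and 60.8% rose and 8.5% fell in GF mice. With the length trend of each library removed, 31 histone genes rose and 4 fell in SPF mice, and 28 rose and 4 fell in GF mice, with medians of 1.42 and 1.26. With library totals alone 37 rose and 3 fell in SPF mice and 38 rose and 2 fell in GF mice, while the median of all genes moved to -0.68 and -0.58 and that of the 55 to 1.76 and 1.67.

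**Figure D3:**
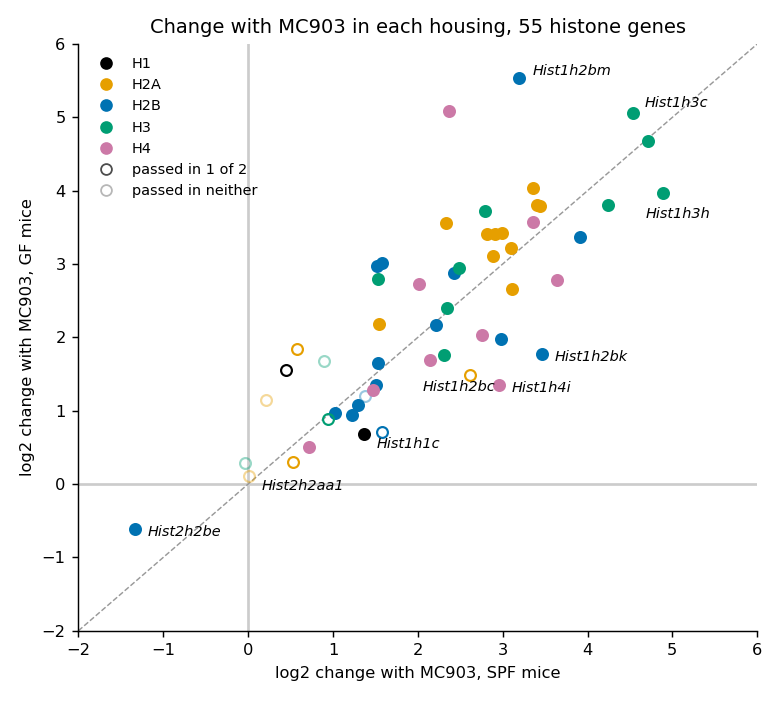
Log2 change with MC903 in SPF mice (x axis) and in GF mice (y axis) for the 55 histone genes, coloured by class, filled where both changes passed the test. Most points lie in the upper right, Hist2h2be alone lies in the lower left, and the dashed line marks equal change.

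Linker histone H1 was represented by Hist1h1c (chr13:23738807-23739531), highest of the 55 in mean FPKM over all libraries, and Hist1h1e. Hist1h1c stood at 34.9, 32.5 and 26 CPM in SPF ethanol libraries and at 67.6, 84.4 and 89.1 with MC903. In GF mice it stood at 22.7, 29.2 and 24.6 CPM with ethanol and at 42.3, 34.8 and 46.2 with MC903. Treated and control libraries did not overlap in either housing. The log2 change was 1.37 ± 0.15 (SE, n = 3 per group, adjusted p = 3.0e-06) in SPF and 0.69 ± 0.15 (adjusted p = 0.0011) in GF mice. The GF rise was 0.18 with library totals (adjusted p = 0.265) and turned to -0.10 with the length trend removed (adjusted p = 0.574). Hist1h1e was much lower, at a mean of 0.36, 0.49, 0.15 and 0.45 CPM in SPF ethanol, SPF MC903, GF ethanol and GF MC903 libraries. It passed in GF mice at a log2 change of 1.55 ± 0.49 (adjusted p = 0.0134) and not in SPF mice at 0.45 ± 0.44. Without GF ethanol 5 or GF MC903 4 its adjusted p was 0.0574 or 0.0863. With library totals the GF change was 1.05 (adjusted p = 0.0691) and without the length trend 0.84 (adjusted p = 0.14), and its annotated span overlaps that of Hist1h2be.

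Of the 16 H2A genes, 13 rose in SPF and 12 in GF mice and none fell. Among them Hist1h2ab, Hist1h2ad, Hist1h2ah, Hist1h2ak and Hist1h2ap reached 10 counts with MC903 only, so the count rule favoured their rise. The most abundant H2A gene, Hist2h2aa1 (chr3:96245497-96246052), did not pass. It stood at 24.1, 26.1 and 20.6 CPM with ethanol and 21.8, 26.9 and 22.4 with MC903 in SPF mice, and at 21.0, 23.2 and 24.7 against 25.5, 23.5 and 25.4 in GF mice. The groups overlapped, and the log2 changes were 0.01 (95% interval -0.20 to 0.22) and 0.11 (-0.10 to 0.32). With the length trend removed, or with library totals, it was among the genes called lower in both housings. Of the H2A genes under 1 CPM with ethanol, several had large rises. Hist1h2ag went from 14, 14 and 17 counts to 174, 121 and 60 in SPF mice and from 1, 6 and 13 to 60, 79 and 69 in GF mice, log2 changes of 3.43 ± 0.44 and 3.79 ± 0.50. Hist1h2ae rose by 2.89 ± 0.25 and 3.11 ± 0.26, and Hist1h2ak, with 0 to 4 counts in ethanol and 10 to 31 in MC903 libraries, by 3.36 ± 0.76 and 4.04 ± 0.84. Hist3h2a, whose span overlaps Trim17, rose by 0.53 ± 0.16 in SPF mice (adjusted p = 0.0081), with overlapping groups and a turn to -0.05 with library totals and -0.38 with the length trend removed. In GF mice its change of 0.30 ± 0.15 did not pass.

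Of the 16 H2B genes, 14 rose and 1 fell in SPF mice and 13 rose and 1 fell in GF mice. Among them Hist1h2bf, Hist1h2bm and Hist1h2bn reached 10 counts with MC903 only, so the count rule favoured their rise. Hist1h2bc (chr13:23684199-23692480) stood at 32.1, 31.9 and 25.7 CPM with ethanol and 85.5, 83.6 and 85.1 with MC903 in SPF mice. In GF mice it stood at 13.2, 14.6 and 14.0 CPM with ethanol and 36.7, 34.2 and 35.4 with MC903. Treated and control libraries were far apart in each housing, and the log2 changes were 1.5 ± 0.09 (adjusted p = 1.2e-08) and 1.34 ± 0.09 (adjusted p = 6.9e-08). Hist1h2bg stood at 4.90, 4.58 and 4.43 CPM against 11.2, 10.1 and 11.3 in SPF mice, and at 2.07, 2.22 and 2.33 against 4.77, 3.22 and 4.73 in GF mice. It rose by 1.23 ± 0.14 and 0.94 ± 0.15. Once the length trend was taken out, these values were 0.31 (adjusted p = 0.14) and -0.14 (adjusted p = 0.533). Hist1h2bj had the largest SPF rise among H2B genes, from 12, 12 and 11 to 146, 143 and 91 counts, a log2 change of 3.91 ± 0.24. In GF mice it went from 5, 6 and 6 to 41, 53 and 38 counts, 3.37 ± 0.27.

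Hist2h2be (chr3:96221072-96223738) was the exception among all 55. This H2B gene shares no 50-base window with transcripts of the other histone rows, the only ones searched. It is not among the shortest 10% of genes. It stood at 9.61, 8.35 and 10.2 CPM with ethanol and 3.57, 4.17 and 3.39 with MC903 in SPF mice. In GF mice it stood at 8.06, 7.56 and 7.64 CPM with ethanol and 4.60, 5.39 and 5.27 with MC903. Every MC903 library lay below every ethanol library. The log2 changes were -1.34 ± 0.12 (adjusted p = 5.5e-07) and -0.61 ± 0.12 (adjusted p = 0.00055), and both passed in each alternative run. Its back-to-back neighbour Hist2h2ac, an H2A gene whose start is 239 bases away, did not pass in SPF mice (log2 change 0.58 ± 0.54) and rose in GF mice (1.84 ± 0.58, adjusted p = 0.0135). Without GF ethanol 1, GF ethanol 5 or GF MC903 1, that rise had adjusted p values from 0.0547 to 0.0628. With library totals it was 1.34 (adjusted p = 0.0527) and without the length trend 0.82 (adjusted p = 0.236).

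**Figure D4:**
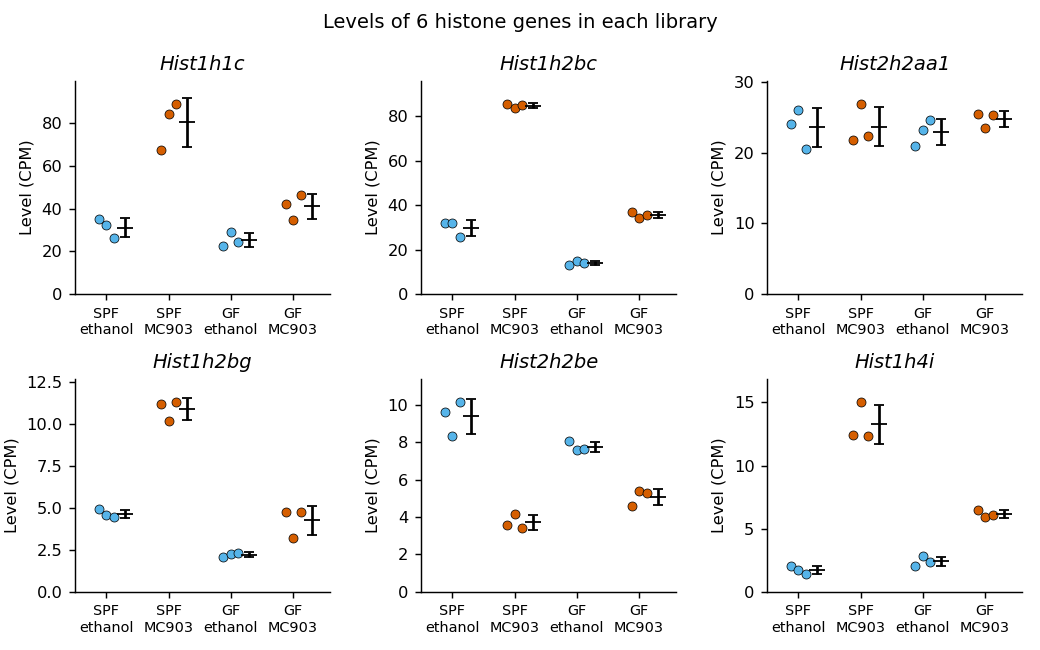
CPM of 6 histone genes in each library (points, blue for ethanol and orange for MC903) with the group mean and SD (bars, n = 3). Hist1h1c, Hist1h2bc, Hist1h2bg and Hist1h4i are higher with MC903 in both housings, Hist2h2be is lower in both, and Hist2h2aa1 stays between 20.6 and 26.9 CPM.

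Among the 12 H3 genes 10 rose in SPF and 9 in GF mice, and they held 4 of the 5 largest SPF rises. Hist1h3c went from 7, 7 and 1 to 119, 88 and 52 counts in SPF mice and from 2, 1 and 4 to 56, 55 and 70 in GF mice. No libraries overlapped, and the log2 changes were 4.54 ± 0.46 and 5.06 ± 0.52. Hist1h3h rose by 4.89 ± 0.58 and 3.97 ± 0.56, Hist1h3g by 4.71 ± 0.64 and 4.68 ± 0.68, and Hist1h3i by 4.24 ± 0.43 and 3.8 ± 0.39. These 4, and Hist1h3f, were among the genes that reached 10 counts with MC903 only, so the count rule favoured their rise. Hist1h3a, at 20, 16 and 10 counts with ethanol and 77, 76 and 34 with MC903 in SPF mice, rose by 2.48 ± 0.41 in SPF and 2.95 ± 0.46 in GF mice. The Hist2 gene Hist2h3c2, the H3 gene with the highest FPKM in SPF ethanol skin (2.32 ± 0.56), was near 1 CPM throughout and did not pass (log2 changes -0.03 ± 0.24 and 0.29 ± 0.25).

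All 9 H4 genes rose in both housings. Of these, Hist1h4c, Hist1h4d, Hist1h4f and Hist1h4n reached 10 counts with MC903 only, so the count rule itself favoured their rise. Hist1h4i (chr13:22040960-22041362) went from 2.01, 1.71 and 1.38 CPM with ethanol to 12.4, 15.1 and 12.3 with MC903 in SPF mice. In GF mice it went from 2.07, 2.81 and 2.37 to 6.5, 5.92 and 6.10 CPM. Each MC903 group lay above both ethanol groups, and the changes were 2.96 ± 0.16 (adjusted p = 7.4e-09) and 1.35 ± 0.16 (adjusted p = 8.4e-06). The GF change was 0.22 once the length trend was taken out (adjusted p = 0.175). Hist1h4d rose by 3.36 ± 0.48 and 3.57 ± 0.49 and Hist1h4b by 2.15 ± 0.33 and 1.69 ± 0.33. The GF change of Hist1h4b was 0.60 without the length trend (adjusted p = 0.147). Hist1h4f rose by 2.37 ± 0.64 in SPF mice, or 1.41 without the length trend (adjusted p = 0.0612), and in GF mice it had 1 count over the 3 ethanol and 35 over the 3 MC903 libraries, a ratio of 47.8 with a 95% counting interval from 8.03 to 1940. Hist1h4h had the smallest H4 rise, 0.72 ± 0.20 and 0.50 ± 0.19. Its GF call had an adjusted p from 0.0637 to 0.113 without GF ethanol 4, GF ethanol 5, GF MC903 4 or GF MC903 5, and the GF direction turned with library totals (-0.01) and with the length trend removed (-0.63). The SPF change of Hist1h4h was 0.15 with library totals (adjusted p = 0.493) and turned to -0.24 with the length trend removed.

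Of the 46 genes of the Hist1 cluster, Hist1h2al left out, 44 rose in SPF mice and 43 in GF mice, with medians of 2.55 and 2.79. All 17 genes that reached 10 counts with MC903 only are among them, which raises these values. Without the 17, 27 of 29 rose in SPF and 26 in GF mice, with medians of 2.15 and 1.97. The count rule still acts on these: some, such as Hist1h2ai, reached 10 counts in fewer than 3 ethanol libraries. Of the 6 Hist2 genes 1 rose and 1 fell in each housing, with medians of 0.29 and 0.58. By transcript model, the 21 genes that end within 100 bases of the stem-loop had a median log2 change of 2.61 in SPF and 3.02 in GF mice, beside 1.5 and 1.45 for the 18 whose models run further. Without the genes that reached 10 counts with MC903 only, the medians were 2.35 and 2.0 for 12 genes and 1.37 and 1.28 for 15 genes. MC903 libraries helped to admit some of these too, such as Hist1h2ao among the 12 and Hist1h2ac among the 15. The median FPKM level was 0.80 for the 21 and 1.32 for the 18. These are descriptions, and no test compares the sets.

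Among 14 back-to-back gene pairs, 12 had both genes among the 55, with starts 176 to 660 bases apart in GENCODE M21. Both genes rose in 10 of the 12 in SPF mice and in 8 in GF mice. Over all 55 genes 85.5% rose in SPF and 81.8% in GF mice, and a link between partners was not tested. Of the paired genes, Hist1h2ad, Hist1h2ah, Hist1h2ak, Hist1h2ap, Hist1h2bf, Hist1h2bn and Hist1h3f reached 10 counts with MC903 only, so the count rule favoured their rise. Levels within a pair could be far apart or alike. Over all libraries the mean FPKM of Hist1h2bc was 96.6 times that of its partner Hist1h2ac, and that of Hist1h2bg 6.13 times that of Hist1h2ae. Hist1h2bj and its partner Hist1h2ag had a ratio of 1.0, and Hist1h2bk and Hist1h2ah one of 1.2. The less abundant partner rose more steeply in the Hist1h2ae and Hist1h2bg pair, by 2.89 against 1.23 on the log2 scale in SPF mice. Hist1h2ac rose by 1.54 ± 0.52 and 2.18 ± 0.61, and without SPF ethanol 3 or SPF MC903 1 its SPF change had an adjusted p of 0.0712 or 0.0992. With library totals the SPF change of Hist1h2ac was 0.97 (adjusted p = 0.104). Without the length trend its changes were 0.67 (adjusted p = 0.253) and 1.14 (adjusted p = 0.118). Differences between partners were not tested.

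The responses of the 2 housings differed by test in 3 of the 55 genes. The difference (GF minus SPF response) was higher in 1 gene, where 7.75% of all genes were, and lower in 2, where 9.26% were. Hist1h4i, with the steeper SPF rise given above, differed by -1.61 ± 0.22 on the log2 scale (adjusted p = 0.00064), and this passed in every alternative run. Hist2h2be fell less in GF mice, a difference of 0.73 ± 0.17 (adjusted p = 0.0114), which also passed in every alternative. Hist1h1c differed by -0.68 ± 0.21 (adjusted p = 0.0413). That call was lost without any 1 of SPF ethanol 2, SPF ethanol 3, SPF MC903 2, SPF MC903 3, GF ethanol 4, GF ethanol 5, GF MC903 1 or GF MC903 4, with adjusted p from 0.0651 to 0.0996. Hist1h2bk missed the threshold at -1.69 ± 0.56 (adjusted p = 0.0577), with rises of 3.46 ± 0.43 in SPF and 1.77 ± 0.34 in GF mice, the latter 0.73 without the length trend (adjusted p = 0.0527). Hist1h2bc rose to a similar degree in both, with a difference of -0.16 and a 95% interval from -0.40 to 0.08.

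Without MC903, GF and SPF skin differed in 9 histone genes. In GF ethanol libraries 5 genes were higher, where 11.6% of all genes were, and 4 were lower, where 10.3% were, so these shares (9.09% and 7.27%) were close to those of all genes. Hist1h2bc, at 13.2 to 14.6 CPM in GF and 25.7 to 32.1 CPM in SPF mice, was lower by 1.10 ± 0.09 on the log2 scale, a change of -1.10 (adjusted p = 6.8e-05). Hist1h2bg was lower to the same degree, at -1.07 ± 0.15 (adjusted p = 0.0012). Both groups were apart in each gene, and both calls held in every alternative run. Among the shortest 10% of genes, to which both belong, 25.6% were higher and 1.52% lower in GF mice. Hist1h2bk was higher in GF mice, with 16, 26 and 19 counts against 6, 4 and 3, a change of 2.29 ± 0.45 (adjusted p = 0.0056). Hist1h2bq was higher by 1.81 ± 0.35 (adjusted p = 0.0056), with 110, 32 and 85 counts against 24, 19 and 26.

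The other 5 ethanol calls rested on few counts or small changes, and each was lost without some single library. Hist1h2bf had 0, 1 and 2 counts in GF and 6, 5 and 8 in SPF ethanol libraries, a ratio of 5.90 with a 95% counting interval from 1.74 to 31.2. It missed the threshold without any 1 of SPF ethanol 1, 2 or 3 or GF ethanol 1 or 4 (adjusted p 0.0504 to 0.0885). Hist1h2bm had 0 counts in all 3 GF and 3, 3 and 1 in SPF ethanol libraries. Taking 3 counts over the group as the limit that 0 allows, it was 2.18-fold lower in GF mice. That value leaves out the counting error of the SPF counts, so it is not a lower limit. Hist1h2bm missed without SPF ethanol 1 or 2, SPF MC903 1, GF ethanol 1, 4 or 5 or GF MC903 5 (0.0523 to 0.0951). Hist1h4h was higher by 0.65 ± 0.19 and missed without SPF ethanol 1 or 2 or GF ethanol 1, 4 or 5 (0.0533 to 0.108), and without the length trend it was 0.38 (adjusted p = 0.204). Hist3h2ba, higher by 0.78 ± 0.26, missed without any 1 of 11 libraries, all but SPF MC903 2 (0.0520 to 0.177). Hist1h4i, higher by 0.50 ± 0.16, missed without any 1 of 9 libraries, all but SPF ethanol 1, SPF MC903 2 and GF ethanol 1 (0.0522 to 0.194).

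Under MC903, 11 histone genes differed between housings. In GF mice 5 were higher, where 20.8% of all genes were, and 6 were lower, where 20.9% were. Hist1h2bc, at 34.2 to 36.7 CPM in GF and 83.6 to 85.5 CPM in SPF mice, was lower by a log2 difference of -1.26 ± 0.09 (adjusted p = 1.3e-06). Hist1h2bg was lower at -1.36 ± 0.14, Hist1h2bj at -1.47 ± 0.20, Hist1h4i at -1.10 ± 0.15 and Hist1h1c at -0.97 ± 0.15. The groups did not overlap in these 5 genes, and each call held in every alternative run. Hist1h2bm was lower at -1.71 ± 0.48 (3, 7 and 4 counts against 17, 18 and 13) and missed without GF MC903 1 or 5 (adjusted p 0.0684 and 0.0595).

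Among the 5 higher under MC903, Hist2h2be differed by 0.45 ± 0.12 (adjusted p = 0.0103) and Hist1h2bq by 1.93 ± 0.32 (adjusted p = 0.00050), and both calls held in every alternative. The H2A genes Hist1h2ad, Hist1h2an and Hist1h2ah were higher by 1.14 ± 0.32, 1.5 ± 0.40 and 1.0 ± 0.32. Hist1h2ad missed without GF MC903 1 (adjusted p = 0.0563) and Hist1h2an without GF MC903 5 (0.0529). Hist1h2ah missed without SPF MC903 2, SPF MC903 3 or GF MC903 5 (0.0520 to 0.108). Without the length trend the values were 0.76, 1.08 and 0.61, with adjusted p of 0.0751, 0.0661 and 0.149. Among the shortest 10% of genes 39.0% were higher and 6.25% lower in GF mice, and with the length trend removed 2 histone genes were higher and 13 lower. In both treatments Hist1h2bc, Hist1h2bg and Hist1h2bm were lower and Hist1h2bq was higher in GF mice. The ethanol and MC903 comparisons share no library, but they come from 1 fit with a shared estimate of spread. Whether they share animals is not given.

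**Figure D5:**
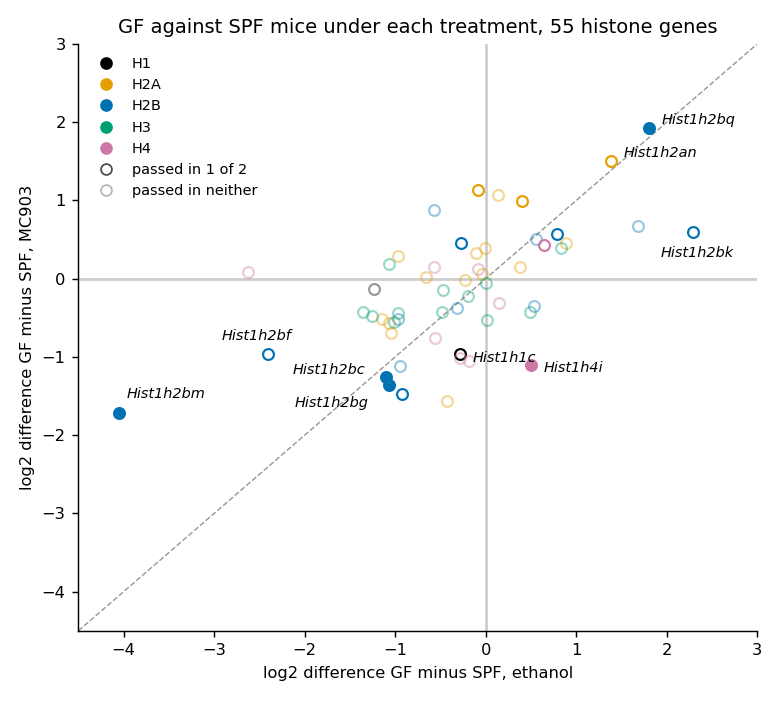
Log2 difference between GF and SPF mice with ethanol (x axis) and with MC903 (y axis) for the 55 histone genes, coloured by class, filled where both differences passed. Hist1h2bc and Hist1h2bg lie together at the lower left, Hist1h2bq at the upper right, and most genes passed in neither. Hist1h2bm, at 0 counts in GF ethanol libraries, is placed by a fitted value that depends on the prior count.

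Near-identical copies limit how far single genes can be read. Windows of 50 bases were compared only among transcripts of the 69 histone rows, each gene against all the others together. Of the 55 genes, 29 share at least 50% of their windows in this way, and 13 share at least 80%. Among the 26 that share less, 22 rose and 1 fell in each housing. Among the 29 that share more, 25 rose in SPF and 23 in GF mice. Of all genes tested, 35% rose in SPF and 33.4% in GF mice. Among the 26, Hist1h2bm, Hist1h3c, Hist1h3f, Hist1h4c, Hist1h4d and Hist1h4f reached the minimum of the count rule in MC903 libraries only. The 29 also include such genes, Hist1h3h among them. The count rule favoured the rise of these genes, so it raises the counts of both sets. Hist2h3c1, which shares 34.7% of its windows and has Hist2h3c2 as its closest copy, varied widely within a group: it had 75, 1 and 51 counts in SPF ethanol libraries and 47, 1 and 65 in GF MC903 libraries. Hist1h2ao had 79, 55 and 1 counts in SPF MC903 libraries. It passed in SPF mice at 2.61 ± 1.02 (adjusted p = 0.0342), missed without SPF ethanol 1, 2 or 3 or SPF MC903 1 or 2 (0.0639 to 0.137), had an adjusted p of 0.25 with limma voom, 0.0822 with library totals and 0.126 without the length trend, and did not pass in GF mice at 1.48 ± 1.16. Hist1h2bq shares 97.3% of its windows, and its near-copy Hist1h2br had 9, 25 and 0 counts in GF ethanol libraries where Hist1h2bq had 110, 32 and 85. Summed, the 2 copies stood at 0.90 ± 0.14 CPM in SPF and 1.79 ± 0.59 in GF ethanol libraries, and at 2.48 ± 0.56 and 5.44 ± 0.46 with MC903.

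The genes at the edge of the count rule had few counts. Just inside, Hist1h2bf had 82 counts over the 12 libraries and Hist1h2bm 69, with 10 counts reached in 3 libraries. Just outside, at 2 libraries, Hist1h1b had 49, Hist1h1d 74, Hist1h4j 71 and Hist2h2aa2 69. The 14 rows not kept had at most 20 counts in a library, and Hist1h2aa was at 0 in all.

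The 11 variant histones listed here as replication-independent also mostly rose, and whether each is made outside S phase was not tested. In SPF mice 7 of 11 rose and 1 fell (63.6% and 9.09%), and in GF mice 9 rose and 1 fell (81.8% and 9.09%). The median log2 change was 0.91 and 0.73, beside 1.33 and 1.02 for the 16 genes above at 1 CPM or more and -0.10 and -0.07 over all genes. H2afx, the variant phosphorylated at DNA breaks, rose by 2.75 ± 0.15 and 2.51 ± 0.14, and Cenpa, the centromeric H3 variant, by 2.36 ± 0.14 and 2.48 ± 0.14. H2afz rose by 1.53 ± 0.07 and 1.27 ± 0.07, H2afj by 0.94 ± 0.12 in each housing, H3f3b by 0.91 ± 0.07 and 0.73 ± 0.07, H1f0 by 0.58 ± 0.08 and 0.59 ± 0.08 and H2afy by 1.11 ± 0.21 and 0.70 ± 0.20. H2afy2 fell in SPF mice (-0.41 ± 0.15, adjusted p = 0.027) and did not pass in GF mice (-0.33 ± 0.15). H1fx rose in GF mice (0.76 ± 0.25) and did not pass in SPF mice (0.15 ± 0.25).

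H2afv and H3f3a were the members of that list whose responses differed between housings. H2afv, an H2A.Z gene, stood at 44.4, 41.4 and 37.3 CPM with ethanol and 37.5, 41.6 and 26.9 with MC903 in SPF mice, and at 44.4, 50.3 and 53.6 against 78.6, 75.1 and 75.6 in GF mice. It rose in GF mice (0.63 ± 0.13) and not in SPF mice (-0.21 ± 0.13), a difference of 0.84 ± 0.19 (adjusted p = 0.0102). H3f3a, which encodes H3.3 like H3f3b, fell in GF mice (-0.61 ± 0.09) and not in SPF mice (-0.16 ± 0.09), a difference of -0.45 ± 0.12 (adjusted p = 0.0258).

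Genes that handle histones are set here against all genes tested, of which 35% rose and 38.8% fell in SPF and 33.4% rose and 35.1% fell in GF mice. Of 20 histone chaperone and chromatin assembly genes 14 rose and 1 fell in SPF mice (70% and 5%) and 15 rose and 1 fell in GF mice (75% and 5%), with median log2 changes of 0.63 and 0.56. Nap1l1, a chaperone of H2A and H2B, rose by 1.74 ± 0.07 and 1.17 ± 0.07, Ipo4, an importin that carries histones into the nucleus, by 1.5 ± 0.07 and 0.84 ± 0.07, and Asf1b, a chaperone of H3 and H4, by 1.42 ± 0.14 and 1.54 ± 0.14. Atrx, which places H3.3 in heterochromatin, fell by 1.32 and 0.87 on the log2 scale. Of 15 S phase genes 14 rose in each housing (93.3%), with median log2 changes of 0.98 and 1.03 and with Mcm5, a subunit of the replicative helicase, up by 2.14 ± 0.09 and 1.67 ± 0.09. Rrm2, of the enzyme that makes deoxynucleotides, rose by 1.89 ± 0.15 and 1.8 ± 0.15, Mcm3 of the same helicase by 1.31 ± 0.11 and 1.46 ± 0.11, and Gins2 fell in SPF mice (-0.44 ± 0.16). Of 18 genes for histone mRNA transcription and 3' end processing 8 rose and 5 fell in SPF mice (44.4% and 27.8%) and 9 rose and 4 fell in GF mice (50% and 22.2%). These shares lie nearer to those of all genes, and the median log2 changes were 0.13 and 0.20. Ccne1, the cyclin E that drives cells into S phase, rose by 1.85 ± 0.17 and 2.14 ± 0.17. Upf1, a helicase that also takes part in the decay of histone mRNA, rose by 0.92 ± 0.07 and 0.53 ± 0.07. Slbp, the stem-loop binding protein, rose by 0.60 ± 0.10 and 0.57 ± 0.10. Casp8ap2, a factor of the histone locus, fell by 1.07 and 0.95, and Npat, the activator of histone gene transcription at S phase, by 0.87 and 0.59.

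The libraries carry the markers of skin, and levels of cell type markers moved with treatment and, for some cell types, with housing. In bulk skin these levels do not separate a change in cell numbers from a change in transcript per cell. The 5 keratinocyte markers measured summed to 23379.5 to 25640.7 CPM in SPF ethanol, 49616.5 to 60822.9 in SPF MC903, 26975.4 to 31453.3 in GF ethanol and 62342.8 to 65112.2 in GF MC903 libraries. With MC903, 3 of the 5 rose and 1 fell in SPF mice and 5 rose in GF mice. Of all genes tested, 35% rose and 38.8% fell in SPF mice and 33.4% rose and 35.1% fell in GF mice. All 4 fibroblast, all 4 skeletal muscle and all 3 Schwann cell markers fell in both housings, as did 2 of 3 endothelial and 2 of 3 adipocyte markers. Of 6 leukocyte markers 2 rose and 3 fell in SPF mice and 2 rose and 2 fell in GF mice. Of 3 red blood cell markers 1 rose in SPF mice, of 3 melanocyte markers 1 rose and 1 fell in GF mice, and of 2 cartilage markers tested 1 rose and 1 fell in SPF and 1 fell in GF mice. Between housings, all 4 muscle markers were higher in GF mice under both treatments, at a summed 1182 to 1281 against 708 to 822 CPM with ethanol and 743 to 803 against 447 to 493 CPM with MC903. Of all genes, 11.6% were higher in GF mice with ethanol and 20.8% with MC903. No marker measured was at 0 in every library, and the part of tissue makeup in the histone changes was not tested.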

How the data were processed

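Per the file headers and the values, the authors deposited an estimated count, as a whole number, and an FPKM for each gene and library, in 1 table. The submitters' processing notes name StringTie 1.3.4d and HISAT2 2.1.0 with the build mm10, and also list bcl2fastq 2.20.0 and Trimmomatic, with no order or settings. Whether strand was used in counting is not given, and without it overlapping and antisense genes cannot be told apart.

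The counts were tested as deposited with edgeR 4.0.16 (R 4.3.3): filterByExpr by group, TMM scaling, 1 quasi-likelihood fit of the 12 libraries with a coefficient per group, and p-values adjusted by Benjamini-Hochberg over 16466 genes, called at 0.05. The procedure was tested on simulated data in which few genes changed. That test does not cover the shift in scaling factors or the length trend of these libraries. The standard error of a log2 change was taken as its size over the root of the F statistic. All 55 genes were tested. Counting intervals are exact at 95% and cover counting error only. The alternatives were RLE scaling, library totals, DESeq2 1.42.0, limma voom 3.58.1, other filters, the 2 compared groups alone, removal of a length trend per library, a replicate block, and each library left out.

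Genes named in the text are the 4 most abundant of each class, the 5 largest rises and falls per comparison, up to 6 back-to-back pairs, the edge of the count rule, and for the related lists their 3 largest SPF changes and every replication-independent histone. Hist1h2br, Slbp, Npat, Atrx and Gins2 lie outside it and were added after their values were seen. Members and lists were chosen with earlier results of these data known. Pairs were found in GENCODE M21 since the RefSeq table has no strand. Gene spans and promoters are RefSeq on GRCm38.p6, the build of mm10. All 69 rows matched the RefSeq table by gene ID and GENCODE M21 by symbol.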

Additional observations from a re-analysis of the deposited data

Results flagged for a closer look

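The responses to MC903 differed between housings by the test of the difference itself (edgeR, adjusted p under 0.05) in 5 of the histone genes described, as GF minus SPF on the log2 scale. Hist1h4i differed by -1.61, its SPF rise being the steeper. Hist2h2be differed by 0.73, its SPF fall being the deeper. Hist1h1c differed by -0.68, with a steeper SPF rise and a call that 10 of 20 alternatives lost. Of the replication-independent genes, H2afv differed by 0.84 and H3f3a by -0.45. The skeletal muscle markers, which were higher in GF mice under both treatments, did not differ in their response in any of 4 genes, and their part in these differences was not tested.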

How the results depend on the processing

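Over the genes named in the report, 81 called changes were repeated under each alternative: 51 passed in the same direction in every one, 30 were lost in at least one, and 8 values turned direction. The turns with the length trend removed were Hist1h1c (-0.10), Hist1h2bg (-0.14), Hist1h4h (-0.63) and Hist3h2ba (-0.0241) in the GF response and Hist1h4h (-0.24) and Hist3h2a (-0.38) in the SPF response. With library totals they were Hist1h4h in the GF (-0.0088) and Hist3h2a in the SPF response (-0.0493).

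With the length trend removed, 31 genes rose and 4 fell in SPF mice and 28 rose and 4 fell in GF mice, and GF minus SPF gave 2 higher with ethanol and 2 higher and 13 lower with MC903. With library totals, 3 fell in SPF and 2 in GF mice, 1 difference of responses was lower and 3 genes were higher in GF ethanol skin. Without a filter 2 fell in each housing and 3 were higher in GF ethanol skin, as with limma voom (3 higher). With the 2 groups alone 3 were higher and 2 lower in GF ethanol skin, and DESeq2 gave 2 lower, with no adjusted p for Hist1h2bf and Hist1h2bm. Libraries that share a number across ethanol and MC903 correlated at 0.0073, 0.067 and 0.14 in SPF and at 0.022, -0.022 and 0.00056 in GF mice. All but 1 of these lie below 0.1. Between unlike numbers the values ran from -0.127 to 0.060 in SPF and from -0.064 to 0.057 in GF mice. The labels do not say what the numbers mark, so the main fit did not treat the samples as paired. These values do not settle whether they are. With the replicate block 46 rose in SPF and 45 in GF mice, and 1 difference of responses was lower in place of 2. Alternatives with another filter, DESeq2 or fewer libraries count over 25 to 68 of the 69 rows. The cause of the other moves was not tested.

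Leaving out 1 library at a time gave 44 to 49 rises in SPF and 42 to 46 in GF mice, 1 to 2 falls in GF mice, 1 to 2 higher and 1 to 2 lower differences of responses, 2 to 5 higher and 2 to 4 lower genes in GF ethanol skin, and 4 to 5 higher and 5 to 7 lower in GF MC903 skin. Without GF ethanol 4 the calls over all genes between housings with ethanol went from 1914 higher and 1702 lower to 768 and 707.

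The summed level in SPF ethanol, SPF MC903, GF ethanol and GF MC903 libraries was 151, 232, 119 and 153 CPM with library totals, and 91.7, 201, 75.3 and 143 CPM without Hist1h1c. Depth limits the 39 genes under 1 CPM, where 1 library often holds fewer than 10 counts.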
